A study of Mus musculus with 10 samples.

Results

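The genes described here are the chemokine ligands and receptors measured in the cochlea, the hearing organ of the inner ear, of wild-type and mitochondrial mutator mice. They were taken by gene name from the platform annotation: every gene named Ccl, Cxcl, Cx3cl or Xcl with a number, every receptor named Ccr, Cxcr, Cx3cr or Xcr with a number, and Ccrl2. This gave 49 of the 18193 genes named on the array, 32 ligands and 17 receptors. The rule uses gene names alone, but it was set with earlier results of these data known. Each gene was read from its brightest probe set (a group of short probes against one transcript), by the mean over all 10 arrays. Ccl19 and the Ccl21 genes stand on probe sets shared by several genes, and they and Cxcr1 were not analysed here.

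The study asked how mitochondrial DNA mutations that accumulate with age bear on hearing loss. All 10 samples were cochlea RNA of male mice aged 9 months that were kept free of specific pathogens. The wild-type group was Polg+/+ (5 arrays) and the mutant group PolgD257A/D257A (5 arrays, called D257A here), homozygous for an allele of the mitochondrial DNA polymerase gamma whose proofreading is impaired. The labels give neither the strain background nor whether the wild types were littermates. They do not say outright that each array holds a separate animal, and the design text speaks of no replicates, so p-values measure only the spread between these samples, which may be technical. The deposited values are linear array signals with no unit.

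Chemokines are small secreted proteins that draw leukocytes along a gradient. They act on receptors that couple to inhibitory G proteins, and the families CC, CXC, XC and CX3C are named for the spacing of their first cysteines. In injured tissue, resident macrophages, fibroblasts, endothelium and arriving leukocytes make inducible members, while others are made steadily to position cells. Chemokine production by the supporting fibrocytes and resident macrophages of the cochlea is known after noise and inflammation.

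The signals were scaled alike: the trimmed mean was 1494 to 1496 on every array, and correlations between arrays ran from 0.854 to 0.951. D257A replicate 2 held the highest signal of the 10 arrays for 22.1% of all genes, and WT replicate 3 had the largest such share among the wild types, 12.6%. Both are left out together as an alternative below. Of 20 cochlear markers 18 were measured, and Coch and Otos, made by fibrocytes of the cochlea, had signals of 57563 to 83744 and 31575 to 56958. Tecta, Slc26a5 and Pou4f3, of the tectorial membrane and hair cells, were dim, which here means a mean signal below the array median of about 577. Skeletal muscle markers were also present and summed to 202201 to 557921 in WT and 25220 to 283474 in D257A.

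Of the 49 chemokine genes, 1 rose and 0 fell in D257A cochlea at an adjusted p under 0.05 (limma, Benjamini-Hochberg over 45037 probe sets). Among all genes 1.50% passed, 0.451% higher and 1.05% lower, so the count is close to the background. The gene that rose was Ccl3, with a log2 fold change of 4.74. At an unadjusted p under 0.05 there were 14 members higher and 2 lower (Ccl9 and Cxcl17), 32.7% of the 49, beside 16.2% of all genes (7.87% higher and 8.33% lower). At an adjusted p under 0.1 there were 4 (Ccl3, Ccrl2, Cxcl10 and Cxcl2), beside 3.68% of all genes. The groups did not overlap on any array for 4 members, all higher in D257A (Cxcl10, Cxcl12, Ccl2 and Ccrl2), which is 8.16% of members beside 4.86% of all genes (2.06% higher and 2.80% lower). A log2 fold change beyond 1 in either direction stood at 10 members, 20.4% beside 6.35% of all genes. In bulk cochlea, a change in the number of cells that make a chemokine and a change in RNA per cell cannot be told apart.

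Differences leaned to higher signals in D257A: 36 log2 fold changes were positive and 13 negative, with a median of 0.33 beside 0.03 over all genes. Ligands had 21 positive and 11 negative values and a median of 0.26, and receptors 15 and 2 with a median of 0.54. Of the members 29 were dim, 17 ligands and 12 receptors, beside 34.7% of all genes, and dim genes leaned the same way over the whole array, with a median of 0.21. The 20 brighter members had a median of 0.26 beside -0.02 for all brighter genes. Brightness was the mean over all 10 arrays, so Cxcl2 and Ccrl2, with WT means of 304 and 352, entered through their high D257A arrays. The brighter group thus selects in part on higher D257A signals. Centring each array on its median moved the median of all probe sets from 0.09 to -0.01, and the members then had 35 positive and 14 negative values and a median of 0.23.

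**Figure D1:**
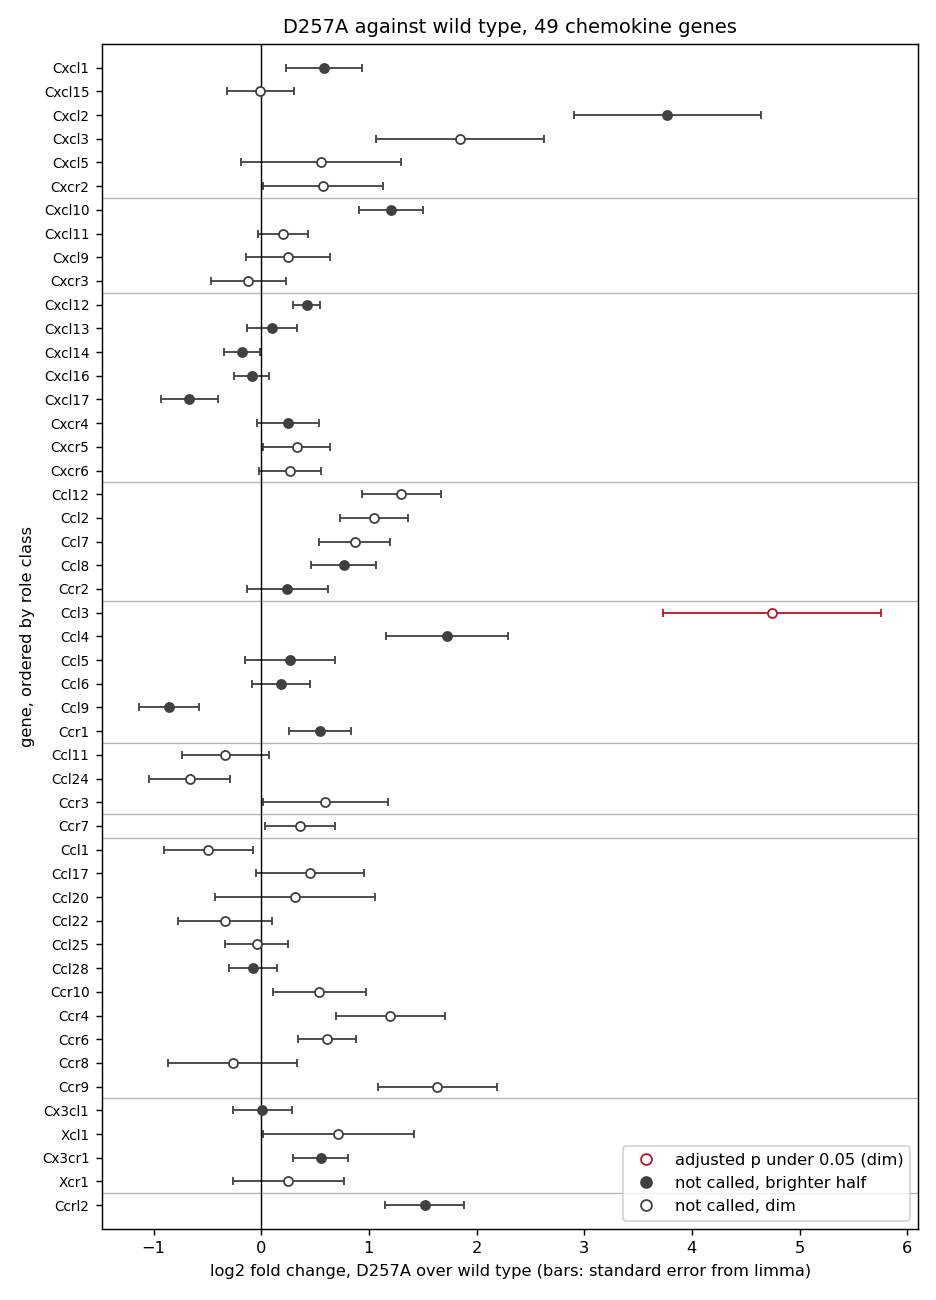
Log2 fold change (D257A minus wild type, on the log2(signal + 16) scale) of each of the 49 chemokine genes with its standard error, ordered by class. Ccl3 at 4.74 and Cxcl2 at 3.77 lie far to the right, and Ccl9 at -0.85 is the most negative.

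The class with an ELR motif before its first cysteine pair attracts neutrophils through Cxcr2, and it held the next largest difference after Ccl3. Signals of Cxcl2 (MIP-2) were 114, 396, 459, 295 and 258 on WT replicates 1 to 5 and 2294, 22453, 2252, 456 and 18451 on D257A replicates 1 to 5. All D257A arrays but replicate 4 lay far above the wild types, and the groups touched only through that array and WT replicate 3, at 456 and 459. The mean signal was 304 ± 133 (SD, n = 5) in WT and 9181 ± 10410.0 (SD, n = 5) in D257A (log2 fold change 3.77, SE 0.87, adjusted p = 0.0538), so Cxcl2 missed the threshold narrowly. With dim probe sets left out, Cxcl2 passed (adjusted p = 0.046), a filter it enters through its high D257A arrays; 2.32% of all genes passed in that fit. It was not called in 17 of 20 alternatives, with adjusted p-values up to 0.125. With single arrays left out, its log2 fold change ran from 3.15 to 4.54, the latter without D257A replicate 4 (adjusted p = 0.0104).

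Cxcl1 (KC), read from a probe set that may cross-react within a gene family, had signals of 1176, 2727, 1758, 2085 and 1213 in WT and 2065, 5779.5, 1490.2, 1762 and 3499 in D257A (log2 fold change 0.58, SE 0.35, adjusted p = 0.448). D257A replicates 2 and 5 were the highest, and the other D257A arrays lay among the wild types. Its other 2 probe sets gave log2 fold changes of 1.02 and 0.77, also not past the threshold. Cxcl3, a dim relative of Cxcl2, had 3.8, 126, 120.4, 124 and 138 in WT and 111, 1217, 183, 115 and 1199 in D257A (log2 fold change 1.84, SE 0.78, adjusted p = 0.273). Again D257A replicates 2 and 5 stood above every other array, and the remaining 3 lay within or near the wild-type range. The other 3 genes of the class (Cxcl5, Cxcl15 and the receptor Cxcr2) were dim, with log2 fold changes of -0.01 to 0.57 and adjusted p-values from 0.656. Among them Cxcl5 reached 2364 and 2515 on D257A replicates 2 and 5 and 154 to 244 on the other 3 mutant arrays.

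Neutrophil markers were examined beside these ligands, since Cxcl2 can be made by neutrophils as well as draw them. Of 16 measured neutrophil markers, 14 had positive differences (median log2 fold change 0.82) and 3 rose: Fpr2, a formyl peptide receptor (1.55, adjusted p = 0.0361), the granule protease Ctsg (1.31, adjusted p = 0.0424) and the granule peroxidase Mpo (1.12, adjusted p = 0.0356). The granule protein gene Ltf fell (-2.11, adjusted p = 0.0374); it is also made by glands. Summed neutrophil signal was 114333 to 190099 in WT and 256634, 331108, 182515, 115122 and 273188 on D257A replicates 1 to 5. Without Ltf, a split made after its values were seen, the sums were 81429 to 130925 in WT. On D257A replicates 1 to 5 they were then 244592, 321006, 174475, 111087 and 264533, with only replicate 4 inside the wild-type range. Among the mutants, replicate 4 was thus lowest for the marker sum and for Cxcl2, and replicates 2 and 5 highest for both. The part of neutrophil number in the chemokine values was not tested.

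**Figure D2:**
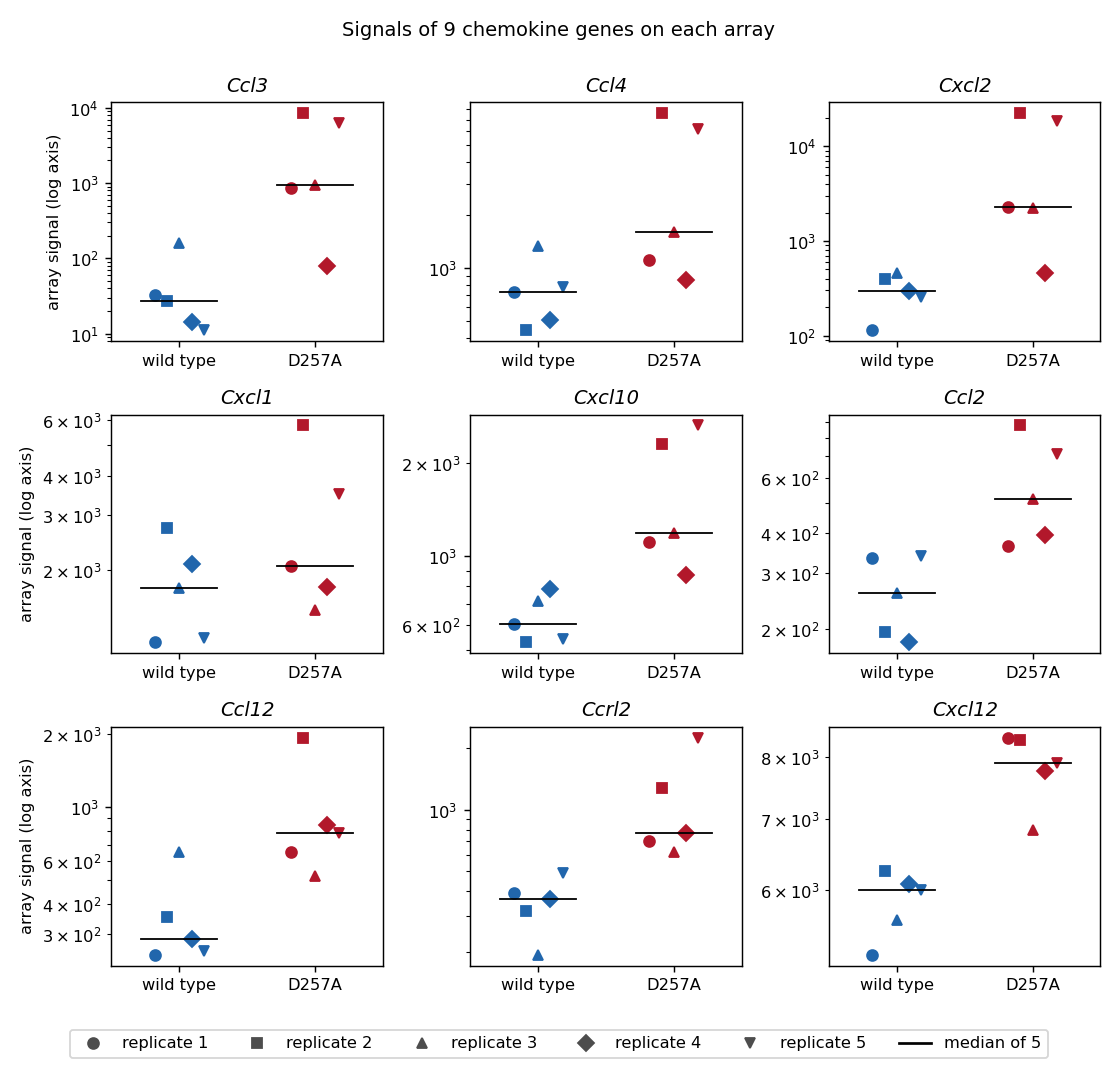
Array signal (log axis, no unit) of 9 chemokine genes on each of the 5 wild-type and 5 D257A arrays, with a marker shape for each replicate number and a line at the median. For Ccl3, Ccl4 and Cxcl2, D257A replicates 2 and 5 stand at the top and replicate 4 at the bottom of the mutant group; Cxcl10, Ccl2, Ccrl2 and Cxcl12 have no overlap between groups.

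The promoters of Cxcl1, Cxcl2 and Cxcl3 are shown because they share one motif. Those of Cxcl10 and Ccrl2 are shown because they match the same motif and their groups did not overlap. That of Ccl3 is shown because it is the gene that rose, so the choice rests on the values. RefSeq's promoter table (build GRCm38.p6) held 36 of the 49 genes, and 250 bases before each start were searched on both strands for the 10-base NF-kB consensus. It stood in 9 of the 36 genes, 25.0%, beside 4.46% of 27025 genes in the table: Ccl9, Ccl20, Ccr3, Ccr6, Ccrl2, Cxcl1, Cxcl2, Cxcl3 and Cxcl10. The matching promoters of Ccl9, Ccl20, Ccr3 and Ccr6 are not printed. Log2 fold changes of these genes were -0.85, 0.315, 0.60 and 0.61. The 120 bases before the start follow, 5′ to 3′, with the match in capitals. In the Cxcl1, Cxcl2 and Cxcl3 promoters overlapping matches on both strands give 1 run of 11 bases, the same letters in each. Ccl3, Cxcl15 of the same neutrophil-attracting class, and Cxcl12, whose groups also did not overlap, had no match in their 250 bases, which says only that these letters are not in this window. Ccl2 was not searched.
Cxcl1 promoter, chr5:90891125-90891244, plus strand: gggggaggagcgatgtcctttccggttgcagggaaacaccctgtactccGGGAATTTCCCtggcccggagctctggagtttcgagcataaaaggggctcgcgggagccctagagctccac
Cxcl2 promoter, chr5:90903779-90903898, plus strand: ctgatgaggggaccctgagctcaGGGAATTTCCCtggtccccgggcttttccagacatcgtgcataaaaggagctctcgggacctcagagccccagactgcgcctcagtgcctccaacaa
Cxcl3 promoter, chr5:90785981-90786100, plus strand: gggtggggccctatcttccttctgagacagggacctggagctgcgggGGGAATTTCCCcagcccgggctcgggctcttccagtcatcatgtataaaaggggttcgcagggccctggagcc
Cxcl10 promoter, chr5:92348890-92349009, minus strand: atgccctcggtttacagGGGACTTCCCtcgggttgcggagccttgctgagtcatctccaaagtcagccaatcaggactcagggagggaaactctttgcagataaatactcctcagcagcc
Ccrl2 promoter, chr9:111057519-111057638, minus strand: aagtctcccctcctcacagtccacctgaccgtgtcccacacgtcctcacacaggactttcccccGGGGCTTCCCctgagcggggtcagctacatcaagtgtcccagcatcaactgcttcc
Ccl3 promoter, chr11:83649379-83649498, minus strand: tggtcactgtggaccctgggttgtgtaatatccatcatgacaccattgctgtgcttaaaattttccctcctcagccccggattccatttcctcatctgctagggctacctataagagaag

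A second match in the Cxcl10 promoter lies 159 to 150 bases before the start, outside the bases shown. Ccrl2 has 3 listed starts, and the match stands before 1 of them. The AP-1 motif TGANTCA was found in 4 of 36 genes (11.1%, beside 7.82% of all), and TATAAA in 11 of 36 (30.6%, beside 14.3%). These matches are descriptions of letters, and binding was not measured. Log2 fold changes of the 9 genes with an NF-kB match ranged from -0.85 for Ccl9 to 3.77 for Cxcl2.

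Interferon-induced CXC ligands attract activated T cells through Cxcr3. Cxcl10 (IP-10) had signals of 608, 528, 721, 786 and 543 on the wild-type arrays and 1112, 2300.0, 1190.2, 868 and 2636 on the D257A arrays. Every mutant array exceeded every wild-type array, and replicates 5 and 2 were the highest. The difference did not pass the threshold (log2 fold change 1.21, SE 0.30, adjusted p = 0.0698), though it did with array weights (adjusted p = 0.0365) or without D257A replicate 4 (adjusted p = 0.0364), fits in which 3.01% and 1.41% of all genes passed. It was not called in the other 18 of its 20 alternatives, with adjusted p-values up to 0.168. Cxcl11 was dim, at 556, 547, 460.1, 586 and 325 in WT and 575, 611, 602, 496 and 521 in D257A (log2 fold change 0.20, SE 0.23, adjusted p = 0.719), with overlapping groups. Cxcl9 and the receptor Cxcr3, both dim, had log2 fold changes of 0.25 and -0.12. The probe sets of Cxcl9 disagreed, the other having a log2 fold change of -1.20 (adjusted p = 0.195). Of 15 T and NK cell markers 13 were dim and 0 passed the limma test (3 at an unadjusted p under 0.05), with sums of 4141 to 6031 in WT and 4575 to 7450 in D257A.

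Among ligands that are made without a stimulus, Cxcl12 (SDF-1), which retains hematopoietic cells in marrow through Cxcr4, had a small difference with tight replicates. Its signals were 5214, 6248, 5621, 6074 and 6003 in WT and 8339, 8292, 6835, 7752 and 7904 in D257A. No mutant array fell within the wild-type range, and the fold on the log2(signal + 16) scale was 1.34 (log2 fold change 0.42, SE 0.13, adjusted p = 0.124). A second probe set, at a mean of 3999 in WT and 5721 in D257A, also had no overlap (log2 fold change 0.49, adjusted p = 0.14), and the remaining one was dim with a log2 fold change of 0.11. The receptor Cxcr4 had a log2 fold change of 0.25 with an adjusted p of 0.715.

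Cxcl17, a mucosal ligand, had signals of 1316, 1363, 1700.1, 1426 and 1266 in WT and 432, 1321, 1063, 819.6 and 1051 in D257A (log2 fold change -0.67, SE 0.26, adjusted p = 0.239). Only D257A replicate 2 lay within the wild-type range, and the other mutant arrays were below it. Epithelial and gland markers also had lower signals: 14 of 15 were negative, 8 of them fell, and their sum was 205706 to 532022 in WT and 81438 to 128478 in D257A. Whether less glandular tissue accounts for any part of the Cxcl17 values was not tested.

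Cxcl14, made by epithelium and fibroblasts, had 2043, 2068, 2299.7, 2212 and 2327 in WT and 1569.9, 2544, 1585, 2241 and 1907 in D257A (log2 fold change -0.18, SE 0.17, adjusted p = 0.651). The groups overlapped, and its 2 probe sets disagreed: the other had a mean of 686 in WT and 1432 in D257A, a log2 fold change of 0.97 with an adjusted p of 0.128. Cxcl16, a membrane-bound ligand of Cxcr6, had 1770.1, 1698, 1254, 1515 and 1911 in WT and 1401, 1421, 1566, 1753 and 1459 in D257A (log2 fold change -0.09, SE 0.16, adjusted p = 0.835), with all mutant arrays inside the wild-type range. Cxcl13, Cxcr5 and Cxcr6, which with Cxcr4 complete the class, had log2 fold changes of 0.10 to 0.33, and the other Cxcl13 probe set had -0.70 (adjusted p = 0.328).

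The class grouped here as monocyte-attracting CC ligands and Ccr2 had positive values for its 4 ligands and for the brightest probe set of Ccr2. The 4 ligands had an unadjusted p under 0.05, beside 16.2% of all genes, and 0 of the 5 genes passed after adjustment with limma. Ccl2 (MCP-1), which is dim, had signals of 335, 195, 259, 181 and 339 in WT and 365, 877, 512, 396 and 713 in D257A. The lowest mutant array, replicate 1, stood just above the highest wild-type array, WT replicate 5, and there was no overlap (log2 fold change 1.05, SE 0.32, adjusted p = 0.126). Ccl12 (MCP-5) had 246.5, 353.0, 655.6, 286.3 and 256.5 in WT and 655.9, 1932.4, 520.6, 847.6 and 779.5 in D257A (log2 fold change 1.3, SE 0.37, adjusted p = 0.104). WT replicate 3 sat at the level of D257A replicate 1 and above D257A replicate 3, and this was the only overlap. With WT replicate 3 and D257A replicate 2 left out, Ccl12 passed (adjusted p = 0.0485), as did Ccl3 (adjusted p = 0.0416), beside 1.75% of all genes.

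Ccl8 (MCP-2) had 1652, 1502, 1989.6, 964 and 656 in WT and 2084, 3268, 2153, 1350.3 and 2298 in D257A (log2 fold change 0.77, SE 0.30, adjusted p = 0.241). All mutant arrays but replicate 4 lay above every wild-type array, by a small margin for replicates 1 and 3. Ccl7 (MCP-3) and the receptor Ccr2 had log2 fold changes of 0.87 and 0.24, with adjusted p-values of 0.222 and 0.802. The other 3 probe sets of Ccr2 gave 0.01, -0.31 and -0.11. Macrophage markers beside these ligands were mixed: 10 of 16 were positive and 6 negative with a median of 0.04. Lyz2, lysozyme M of macrophages and neutrophils, fell (-2.22, adjusted p = 0.00478). The summed signal, of which Lyz2 is a large part, was 74573 to 140524 in WT and 60567 to 71195 in D257A. Without Lyz2, a split made after its values were seen, the sums were 42154 to 49708 and 44970 to 61939. Epithelial and gland sums were also lower, at 205706 to 532022 in WT and 81438 to 128478 in D257A. Whether cells other than leukocytes account for any part of the Lyz2 values was not tested.

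Ccl3 (MIP-1 alpha), which attracts monocytes, T cells and neutrophils through Ccr1, was the single member that rose. Its signals were 32.8, 27.5, 161, 14.2 and 11.1 on WT replicates 1 to 5 and 851, 8494, 936, 79.5 and 6309.5 on D257A replicates 1 to 5. Replicates 2 and 5 of the mutants were the highest, replicates 1 and 3 lay between, and replicate 4, at 79.5, lay below WT replicate 3, which is the only overlap. Mean signal was 49.3 ± 63.0 (SD, n = 5) in WT and 3334 ± 3808 (SD, n = 5) in D257A, a 26.8-fold difference on the log2(signal + 16) scale (log2 fold change 4.74, SE 1.02, adjusted p = 0.0401). Ccl3 is dim by its mean: in WT it was close to the lower end of the array's signals, so the pseudocount sets the size of the fold. The log2 fold change was 5.37 (adjusted p = 0.0377) with a pseudocount of 1 and 3.845 (adjusted p = 0.0536) with 64. The call held in 7 of 19 alternatives, and leaving out 1 array at a time ended it in 8 of 10 fits, with adjusted p-values from 0.00524 without D257A replicate 4 to 0.109 without WT replicate 5. The log2 fold change stayed at 4.08 to 5.70 in those 10 fits.

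Ccl4 (MIP-1 beta), the neighbour and closest relative of Ccl3, is given because of that tie, a choice made after its values were seen. It had 728, 443, 1343, 504 and 783 in WT and 1112, 7616, 1609, 856 and 6232 in D257A (log2 fold change 1.73, SE 0.56, adjusted p = 0.158). D257A replicates 2 and 5 stood apart from all others, replicate 3 was just above the highest wild type, and replicates 1 and 4 lay among the wild types. Ccl9 (MIP-1 gamma), a myeloid ligand of Ccr1, had values in the other direction, 1303, 3030.4, 2572, 1621 and 1789.5 in WT and 1121, 1744, 1109.7, 659 and 1032 in D257A (log2 fold change -0.85, SE 0.28, adjusted p = 0.156). Of the mutants, replicate 2 lay inside the wild-type range and the other 4 below it. A second Ccl9 probe set had a log2 fold change of -1.06 (adjusted p = 0.181).

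Ccl6, another myeloid ligand of Ccr1, had 1935, 1641, 1287, 948 and 1231 in WT and 1678, 2274, 1399.7, 841 and 2012 in D257A (log2 fold change 0.18, SE 0.27, adjusted p = 0.793), with broad overlap. A second Ccl6 probe set, also not dim, had 429 to 606 in WT and 543 to 1208 in D257A (log2 fold change 0.57, limma adjusted p = 0.303). Ccl5 (RANTES) and the receptor Ccr1 had log2 fold changes of 0.27 and 0.54, with adjusted p-values of 0.804 and 0.379. A dim second Ccr1 probe set had a log2 fold change of 1.06 (adjusted p = 0.192).

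These CC ligands lie side by side on chromosome 11. In RefSeq's order of protein-coding genes (GRCm38.p6), Ccl5, Ccl9, Ccl6, Ccl3 and Ccl4 follow each other, and their log2 fold changes were 0.27, -0.85, 0.18, 4.74 and 1.73. A second run on that chromosome, Ccl2, Ccl7, Ccl11, Ccl12, Ccl8 and Ccl1, had 1.05, 0.87, -0.33, 1.3, 0.77 and -0.49. On chromosome 5, Cxcl3, Cxcl15, Cxcl1 and Cxcl2 follow each other with 1.84, -0.01, 0.58 and 3.77. Both runs on chromosome 11 held values of both signs.

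**Figure D3:**
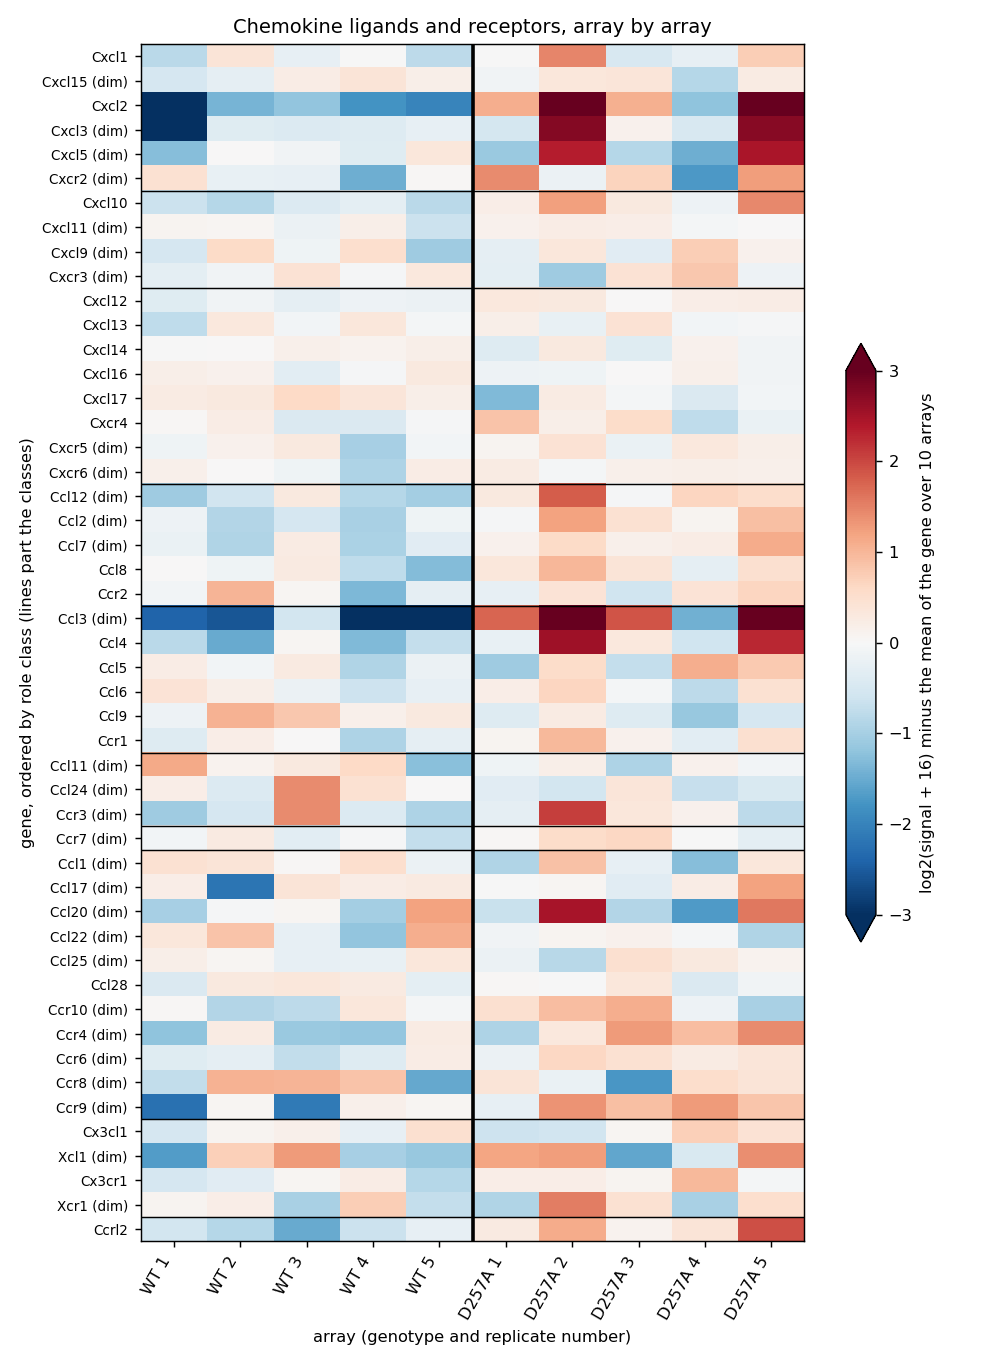
Signal of each chemokine gene (rows, by class) on each of the 10 arrays (columns), as the difference of log2(signal + 16) from the gene's mean over the 10 arrays. D257A replicates 2 and 5 carry the highest values for 12 of the 32 ligands, among them Cxcl2, Ccl3 and Ccl4. For these 3, D257A replicate 4 has the lowest mutant value. Other ligands differ: Ccl5 and Cxcl9 are highest on D257A replicate 4.

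The eotaxins attract eosinophils through Ccr3, and all 3 genes of the class were dim. Ccl24 (eotaxin-2) had 207, 129.7, 503, 251 and 179.7 in WT and 139, 117, 233, 104 and 126 in D257A (log2 fold change -0.67, SE 0.38, adjusted p = 0.418), with overlapping groups. Ccr3 had 25.3, 44.4, 215, 48.8 and 29.4 in WT and 55.6, 346, 92.5, 78.8 and 34.4 in D257A (log2 fold change 0.60, SE 0.58, adjusted p = 0.66), and 1 array in each group, WT replicate 3 and D257A replicate 2, stood above the rest. Ccl11 (eotaxin-1) had a log2 fold change of -0.33. Ccr7, which guides dendritic cells and T cells into lymph nodes, was at 20.7, 31.0, 15.3, 22.1 and 7.9 in WT and 24.2, 40.9, 44.6, 22.8 and 15.7 in D257A (log2 fold change 0.36, SE 0.32, adjusted p = 0.63), near the floor on every array.

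Ligands and receptors of skin, gut and polarised T cells numbered 11, of which 10 were dim and 0 passed the limma test (3 at an unadjusted p under 0.05). Ccr9, the gut-homing receptor of T cells, had 23.8, 179, 27.2, 194 and 178 in WT and 141, 459.5, 335, 436 and 316 in D257A (log2 fold change 1.63, SE 0.55, adjusted p = 0.17). All mutant arrays but replicate 1 lay above the wild types, while its 4 other probe sets, all dim, had smaller values of 0.24 to 0.75 with adjusted p-values from 0.587. The mean over its probe sets gave a log2 fold change of 0.74. Ccr4, the receptor for Ccl17 and Ccl22, had 35.4, 125, 38.7, 37.4 and 124 in WT and 46.3, 133, 270.4, 208 and 299 in D257A (log2 fold change 1.20, SE 0.51, adjusted p = 0.272), with replicates 2, 3, 4 and 5 of the mutants above the wild types. The other 9 genes of this class ran from -0.49 for Ccl1 to 0.61 for Ccr6, with adjusted p-values from 0.291. Ccl20, a ligand of Ccr6, reached 987 and 522 on D257A replicates 2 and 5, beside 39.5 to 98 on the other mutant arrays. Ccl28, the mucosal ligand of Ccr10 and the gene of the class that is not dim, had a log2 fold change of -0.07.

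Cx3cl1 (fractalkine), a tethered ligand made by neurons and endothelium, had 1465, 2205, 2336, 1766 and 2929 in WT and 1348, 1409.8, 2185, 3425 and 2848 in D257A (log2 fold change 0.01, SE 0.28, adjusted p = 0.992), with full overlap and a sign that turned under centring on the median. The other Cx3cl1 probe sets were all higher in D257A, with log2 fold changes of 0.49, 0.43 and 1.005 (limma adjusted p = 0.445, 0.703 and 0.291). The Cx3cl1 receptor Cx3cr1, carried by resident macrophages and monocytes, had 708, 793, 1044, 1182 and 551 in WT and 1149, 1145, 1063, 1990.0 and 958 in D257A (log2 fold change 0.55, SE 0.26, adjusted p = 0.317). A dim second Cx3cr1 probe set had a log2 fold change of 0.002. Replicate 4 of the mutants was the highest array for both genes, while it was low for Ccl3 and Cxcl2. Xcl1 (lymphotactin) was dim, at 10, 121, 184, 25.7 and 21.6 in WT and 170.5, 183, 11.9, 43.8 and 201 in D257A (log2 fold change 0.72, SE 0.70, adjusted p = 0.659), and its receptor Xcr1 had a log2 fold change of 0.25.

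Ccrl2 binds the attractant chemerin without signalling through G proteins and presents it to other cells. Its signals were 392, 317, 194, 364 and 491 in WT and 702, 1274, 623, 767 and 2258 in D257A. All mutant arrays lay above all wild types, with replicates 5 and 2 the highest, at a mean of 352 ± 109 (SD, n = 5) in WT and 1125 ± 683 (SD, n = 5) in D257A (log2 fold change 1.52, SE 0.36, adjusted p = 0.062). Ccrl2 passed with dim probe sets left out (adjusted p = 0.0466), a filter it too enters through its high D257A arrays, and it was not called in the other 19 of 20 alternatives, with adjusted p-values up to 0.144. Rarres2, the gene of chemerin, fell: 2661, 2478, 2151, 2157 and 2314 in WT and 1487, 1033, 1207, 1399.5 and 1492 in D257A (log2 fold change -0.83, SE 0.16, adjusted p = 0.0247), with no overlap between groups.

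Rarres2 is 1 of 17 measured genes, of 21 listed, that have chemokine functions under other names. In that list 9 were positive and 8 negative, with a median of 0.06, and 1 rose and 2 fell. Cd74, the invariant chain and a receptor chain for the cytokine MIF, fell from 9448, 11585, 10690.5, 9413 and 13964 in WT to 5508, 3649.9, 6334, 5685 and 4737 in D257A (log2 fold change -1.09, SE 0.18, adjusted p = 0.011). Sdc4, a heparan sulfate proteoglycan that binds chemokines, rose from 4016, 2705, 3431, 2711 and 3371 in WT to 10140.4, 12269.5, 5174, 6354 and 6511 in D257A (log2 fold change 1.25, SE 0.23, adjusted p = 0.0207). Neither gene had overlapping groups. The scavenging receptors Ackr1, Ackr2, Ackr3 and Ackr4 had log2 fold changes of -0.28, -0.40, 0.51 and -0.11, and the platelet chemokines Pf4 and Ppbp 0.25 and 0.27, none past the threshold.

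Downstream of the receptors, 34 of 37 listed genes of chemokine signalling (G protein subunits, kinases, arrestins and Rac regulators) were measured. There were 21 positive and 13 negative values with a median of 0.08, and 0 passed the limma test (5 at an unadjusted p under 0.05). The smallest unadjusted p was that of the receptor kinase Grk3, with a log2 fold change of -0.62 (adjusted p = 0.102), named here after its values were seen.

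The mutant arrays did not share these differences equally, a pattern noticed after the values were seen. D257A replicate 2 held the highest signal for 19 of the 49 members, 38.8% beside 22.1% of all genes. D257A replicates 2 and 5 were the top 2 arrays for 14 members, 28.6% beside 6.34% of all genes: Ccl2, Ccl3, Ccl4, Ccl6, Ccl7, Ccl8, Ccl20, Cxcl1, Cxcl2, Cxcl3, Cxcl5, Cxcl10, Ccr1 and Ccrl2. These were 12 of 32 ligands and 2 of 17 receptors. D257A replicate 4 was the lowest mutant array for 18 members, 36.7% beside 22.5% of all genes. Cd14, the monocyte and neutrophil co-receptor for lipopolysaccharide, had 5689 and 7782 on D257A replicates 2 and 5 and 2148 to 2635 on the other 8 arrays. Cd14 is 1 of 16 measured macrophage markers, and their sum without Lyz2 did not have this order. That sum was highest on D257A replicate 4, at 61939, beside 51989 and 55746 on replicates 2 and 5.

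**Figure D4:**
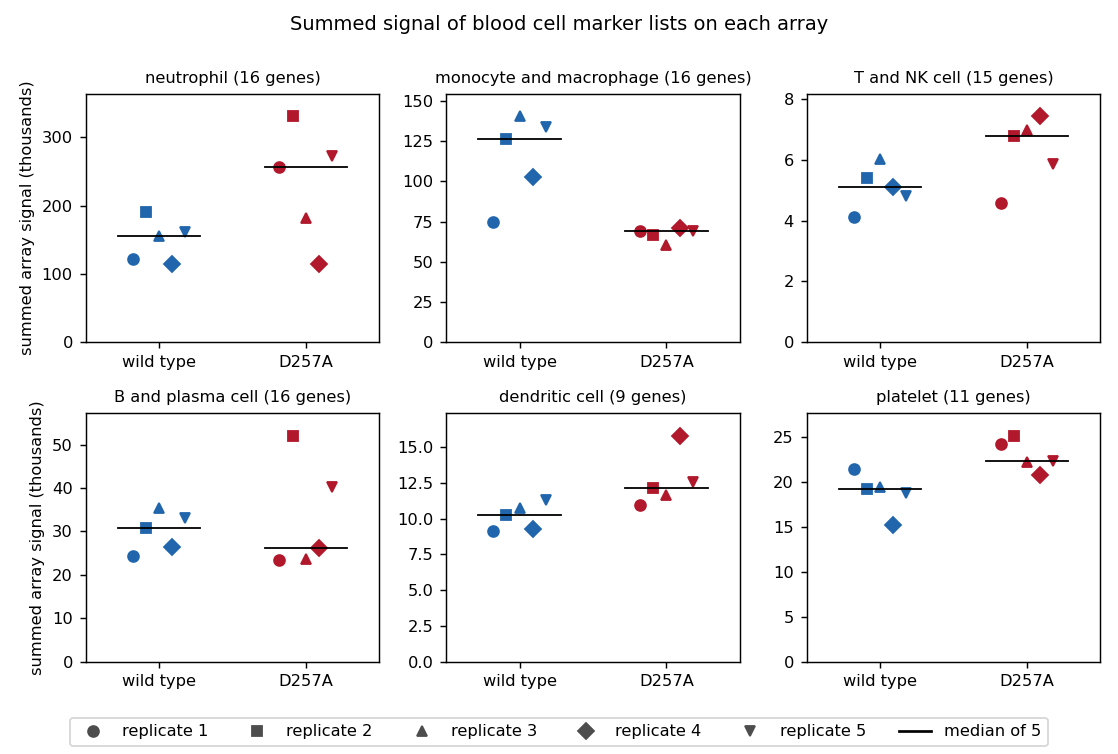
Summed array signal (no unit, axis in kilo-units) of the measured markers of 6 blood cell types on each array, with a line at the median of each group and a marker shape for each replicate number. Neutrophil sums are highest on D257A replicates 2 and 5 and lowest among the mutants on replicate 4. Macrophage sums as drawn include Lyz2 and lie lower in D257A. Without Lyz2 they were not lower, at 42154 to 49708 in WT and 44970 to 61939 in D257A (not drawn).

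Fibroblast and fibrocyte markers had lower signals: 10 of 11 were negative, with a median of -0.87, and 6 fell (Col1a1, Col1a2, Col3a1, Dpt, Postn and Bgn, genes of the extracellular matrix). Their sums were 143099 to 183006 in WT and 94328 to 124696 in D257A, without overlap. Of 15 skeletal muscle markers 7 fell. B and plasma cell markers had a median of -0.18 and 1 that fell, Jchain (-1.43, adjusted p = 0.00503), with sums of 24340 to 35411 in WT and 23476 to 52058 in D257A. Dendritic cell markers had a median of 0.15 and platelet markers 0.27, with sums of 9114 to 11305 and 15213 to 21407 in WT and of 10964 to 15787 and 20764 to 25169 in D257A. Of 12 eosinophil, mast cell and basophil markers 9 were dim, and the median was -0.06. The part of any of these cell types in the chemokine values was not tested.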

How the data were processed

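RNA from 10 cochlea samples was measured on mouse Affymetrix arrays. The deposited values are linear array intensity per probe set, and GCOS 1.3 is named in the submitters' processing notes. The sources used here give neither the background correction nor the scaling target. The 64 control probe sets were left out. Of 45037 probe sets, 34945 carried 1 gene symbol, 932 several and 9160 none; those with several or none were not named. Signals were taken as log2(signal + 16), which understates changes of dim genes. Groups were compared by limma 3.58.1 (R 4.3.3) without covariates, using lmFit and a moderated variance that follows intensity, with 8 residual degrees of freedom. Its two-sided p-values were adjusted by Benjamini-Hochberg across the 45037 probe sets, dim ones included, and called under 0.05. The arrays limit precision by their number.

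Members and lists were chosen with earlier results of these data known. Members were given array by array when called, when groups did not overlap, when among the 8 brightest, or when having 1 of the 2 smallest unadjusted p-values of their class; other list genes were named when called or beside a member they bear on. On simulated data with 200 changed probe sets among 45037, the fit recovered 13% of changes of 1 log2 unit and 59% of changes of 2 units, and 5.26% of calls were false. The simulated noise was normal and independent between probe sets, and each change was equal on every mutant array. Ccl3 and Cxcl2 rose unequally over the mutant arrays, so these rates may not hold for such genes. Promoters came from RefSeq (GRCm38.p6). Alternatives were other pseudocounts, scalings, dim filters, thresholds, variance priors, array weights, a replicate block, single arrays left out, and the mean over probe sets.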

Additional observations from a re-analysis of the deposited data

Results flagged for a closer look

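In each group of 5 arrays, the gap between the highest or lowest signal and its nearest neighbour was set against the range (Dixon's test). Of 98 groups, 10 had an array past the critical value, and chance gives about 1 in 20. WT replicate 3 was far above the other wild types for Ccl3 (160.7, next 32.8), Ccl12 (655.6, next 353.0) and Ccr3 (215.3, next 48.8). D257A replicate 2 was far above the other mutants for Ccl12 (1932.4, next 847.6) and Ccr3 (346.0, next 92.5). WT replicate 1 was low for Cxcl3 (3.8, next 120.4) and WT replicate 2 for Ccl17 (37.2, next 263.7). D257A replicate 5 was high for Ccl17 (544.8, next 268.3), D257A replicate 3 for Ccl24 (232.6, next 138.7) and D257A replicate 4 for Cx3cr1 (1990.0, next 1148.8).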

How the results depend on the processing

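The count of called members was 1 with the settings used and with a pseudocount of 1, centring on the median, or the mean over probe sets. It was 0 at a threshold of 0.01, with a pseudocount of 64, quantile normalization, the brightest 30% of probe sets (8 members tested), no intensity trend or the replicate block; in these limma fits 3 to 17 members had an unadjusted p under 0.05. It was 2 with dim probe sets left out (Ccrl2 and Cxcl2, of 20 tested) and with WT replicate 3 and D257A replicate 2 left out (Ccl3 and Ccl12), 3 with array weights (Ccl3, Cxcl2 and Cxcl10), 4 at a threshold of 0.1, and 0 to 3 with single arrays left out. Ccl3 had adjusted p-values of 0.0536 with a pseudocount of 64, 0.053 with quantile normalization and 0.0723 without the trend. Members without overlap numbered 4; with centring 3 were higher and 1 lower (5.71% of all genes). There were 1 in the brightest 30% (5.10% of all genes there), 11 without WT replicate 3 and D257A replicate 2 (10.4%), and 4 to 9 with single arrays left out, 9 without WT replicate 3 (8.42%).

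Over all probe sets 591 were called, and 119 at a threshold of 0.01, 1497 at 0.1, 322 in the brightest 30%, 384 without the trend, 1178 with array weights, 278 genes with the mean over probe sets, and 185 to 738 with single arrays left out. The share of calls that were higher was 50.9%, and 34.5% with centring. Calls in the pathway lists numbered 3, with 1 without the trend or with the mean over probe sets and 1 to 3 with single arrays left out. Cx3cl1 turned to -0.09 with centring, and was -0.16 to 0.17 with single arrays left out; Cxcl14 turned to 0.40 with the mean over probe sets. The causes were not tested. Same-numbered arrays of the groups did not deviate together (correlations -0.135 to 0.0923, and 2 of 10 arrays correlated best with their own number). This gave no sign of pairing by number, but correlations over all probe sets cannot exclude it. The replicate block called 184 probe sets, 0 members and 0 pathway genes.

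No batch was tested, since neither scan dates nor detection calls were used. Signals of dim genes near the floor have no order.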
